A study of Mus musculus with 18 samples.

Results

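The secreted and membrane-bound metalloproteinases of macrophages, their inhibitors and the urokinase system were examined in bone marrow-derived macrophages (BMDMs) with 1 or no functional allele of Prep, the gene of prolyl endopeptidase. The genes were Mmp8, Mmp9, Mmp12, Mmp13, Mmp14 and Mmp19 of the matrix metalloproteinase family, the tissue inhibitors Timp1 and Timp2, and Plau and Plaur, which encode the urokinase-type plasminogen activator and its receptor. They were taken by symbol, and these 10 genes are 10 of the 16314 symbols in the deposited count table. All 10 passed the filter on low counts, which left 12021 genes for testing.

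Matrix metalloproteinases are zinc-dependent enzymes, made as inactive precursors, that cleave collagens, elastin, gelatins and other proteins of the extracellular matrix. The tissue inhibitors bind and block the active enzymes, and TIMP2 also takes part, on the cell surface, in the activation of proMMP2 by MMP14. Urokinase converts plasminogen into plasmin, a protease that degrades fibrin and can activate some metalloproteinase precursors, and the urokinase receptor holds this activity at the surface of migrating cells.

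BMDMs were grown from femoral bone marrow of C57BL6/J mice for 7 days with 50 ng/ml M-CSF, the growth factor that drives macrophage differentiation, and were left unstimulated (M0), treated with 50 ng/ml LPS, a bacterial cell wall product, for 24 h (M1), or treated with IL-4 and IL-13 at 20 ng/ml each for 24 h (M2). Cells came from Prep-/- mice, which lack the gene in all tissues, and from heterozygous Prep+/- littermates. The controls thus also lacked 1 allele, and no wild-type BMDMs entered the comparison. Each of the 6 groups had 3 libraries, named replicates 1 to 3 here, and the sources used here give neither the age of the mice that supplied this marrow nor what a replicate number marks, so that p-values measure the spread between these samples. The study measured invasion through a matrix in M0 and M2 BMDMs, and the question here was how mRNA of matrix-degrading enzymes differed between the genotypes and states.

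The 18 libraries held 19068237 to 22598279 counts, with 13096 to 13807 genes detected and 13.9% to 23.2% of counts in the 20 most abundant genes. Prep itself was at 551 to 900.0 normalized counts in the Prep+/- libraries and at 31.3 to 68.1 in the Prep-/- libraries, so that its level fitted every genotype label. A normalized count is a count divided by the TMM-scaled size of its library relative to the average library. The 6 macrophage markers summed to 3791 to 9882 CPM, counts scaled to a common library total, against 27.2 to 163 CPM for 10 granulocyte markers, 0.0925 to 18.6 CPM for 7 stromal markers, 11.1 to 77.2 CPM for 4 osteoclast markers and 0.192 to 2.54 CPM for 5 dendritic markers. Of the osteoclast list, 2 markers had 3 counts or fewer in every library, as did 1 granulocyte marker and each of the 3 erythroid and 2 mast cell or basophil markers in the table, which summed to at most 0.157 and 0.0958 CPM. Within M2, replicate 3 stood apart for most of the 10 genes. It was the highest of its group for 8 of the 10 genes in Prep+/- and for 7 of the 10 in Prep-/- BMDMs. In the latter it was 2.19 times (Mmp19) to 43.8 times (Mmp9) the mean of the other libraries for those 7. How often it was the highest over all genes was not counted. Chi-square per degree of freedom over all genes tested measured how far libraries of a group differed. In Prep-/- M2 it was 105 for replicate 3 against each other library, and 11.4 between replicates 1 and 2. In Prep+/- M2 replicate 3 was not apart by this measure, with 12.9 and 17.4 against 13.2. M2 results that rest on Prep-/- M2 replicate 3 are therefore given with and without it. The spread of each gene was estimated over all libraries, so this library also enters standard errors and adjusted p of comparisons without Prep-/- M2. Those comparisons were not refitted with it alone left out. Fits of only the libraries compared leave it out together with the other groups. Prep-/- M0 replicate 3 stood apart over all genes tested too, with chi-square values of 107 and 114 against 33.7 between replicates 1 and 2. Its macrophage markers summed to 4690 CPM, against 8656 and 7884 CPM in replicates 1 and 2. The part of this library in the M0 values was not tested beyond leaving it out. In RNA of whole cultures, fewer cells of a type and less RNA per cell cannot be told apart.

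Mmp8, Mmp12 and Mmp13 share a gene cluster, and the other genes lie apart. In GRCm39, Mmp13 (7272514 to 7283331), Mmp12 (7344381 to 7369499) and Mmp8 (7558457 to 7568487) lie on the plus strand of chromosome 9 in a row of metalloproteinase genes that ends with Mmp27, Mmp20 and Mmp7. Mmp9 lies on chromosome 2 (164780439 to 164797771), Mmp14 on chromosome 14 (54668878 to 54682821), Mmp19 on chromosome 10 (128626773 to 128636695), Timp1 on chromosome X (20736316 to 20740976), Timp2 on chromosome 11 (118191887 to 118246566, minus strand), Plau on chromosome 14 (20886722 to 20893453) and Plaur on chromosome 7 (24161875 to 24175394). All 10 are protein-coding. No other annotated gene overlaps Mmp9, Mmp13 or Plaur. Mmp12 overlaps Mmp1b, Timp1 overlaps Syn1 and Mmp19 overlaps Tmem198b on the opposite strand, Timp2 overlaps Cep295nl on its own strand, and long non-coding RNAs overlap Mmp8, Mmp14, Mmp19, Timp2 and Plau. The library kit keeps strand, but the strand setting of the counting is not given in the sources used here, so reads in these overlaps cannot be assigned with certainty.

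Letters of the AP-1 motif, the binding sequence of Fos and Jun dimers, stood close to the start of 5 of the 10 genes. TGANTCA, which reads the same on both strands, occurred within the 250 bases before the start of the canonical transcript of Mmp9, Mmp12, Mmp13, Mmp19 and Plaur, and in 6.17% of 21770 protein-coding promoters of the same length. In GRCm39 the matches began 69 bases before the start in Mmp9, 44 in Mmp12, 36 in Plaur, 35 in Mmp13 and 26 in Mmp19. The last 120 bases before each start are shown because these 5 genes hold the letters. Of them, Mmp9, Mmp12, Mmp13 and Plaur were lower in Prep-/- than in Prep+/- M1 BMDMs and Mmp19 was higher, and Mmp8, which was lower too, has no match in this window. Capitals mark the AP-1 letters.
Mmp9 (chr2:164790019-164790138, plus strand): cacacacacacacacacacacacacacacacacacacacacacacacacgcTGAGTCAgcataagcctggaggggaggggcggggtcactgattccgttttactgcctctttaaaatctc
Mmp12 (chr9:7347254-7347373, plus strand): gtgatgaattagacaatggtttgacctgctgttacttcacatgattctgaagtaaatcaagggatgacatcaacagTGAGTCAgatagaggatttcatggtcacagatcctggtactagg
Mmp13 (chr9:7272394-7272513, plus strand): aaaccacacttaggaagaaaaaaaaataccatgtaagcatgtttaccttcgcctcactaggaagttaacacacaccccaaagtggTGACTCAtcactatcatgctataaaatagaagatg
Plaur (chr7:24161755-24161874, plus strand): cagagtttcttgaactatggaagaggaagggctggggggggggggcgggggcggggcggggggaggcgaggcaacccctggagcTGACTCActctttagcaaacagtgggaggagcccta
Mmp19 (chr10:128626653-128626772, plus strand): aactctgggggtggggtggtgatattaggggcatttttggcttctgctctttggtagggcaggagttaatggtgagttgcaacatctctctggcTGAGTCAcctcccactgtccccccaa
The sequences were read from the GRCm39 genome with GENCODE vM39 starts, and the Mmp19 window also holds an exon of the long non-coding RNA Gm47093. On either strand, an NF-kB pattern (GGGNNNNNCC) was present in Mmp9, Mmp19, Timp2, Plau and Plaur and in 47.8% of all promoters, a PU.1 pattern (GAGGAAG) in Mmp8, Mmp14, Timp2 and Plaur and in 10.3%, and a STAT6 pattern (TTCNNNNGAA) in 0 of the 10 genes and in 5.89%. In Plaur, the NF-kB pattern matched both strands at positions that overlap. These are matches of letters, and no binding was measured here.

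In unstimulated cells Plau led in Prep+/- and Timp2 in Prep-/- BMDMs, with Mmp12 next in both. Levels of different genes were compared per length, as TMM-scaled CPM per kilobase of the canonical transcript (mean ± SD, n = 3). In Prep+/- M0 BMDMs Plau was highest at 96.6 ± 52.7, followed by Mmp12 at 44.2 ± 21.6, Timp2 at 43.0 ± 2.67 and Plaur at 31.9 ± 10.3, and Mmp9 was lowest at 0.222 ± 0.0991. In Prep-/- M0 BMDMs Timp2 was first at 78.5 ± 12.7, followed by Mmp12 at 24.7 ± 17.1, Mmp8 at 21.4 ± 7.17 and Plau at 20.8 ± 10.1. After LPS Mmp14 was the most abundant of the 10 transcripts per length in both genotypes, at 508 ± 57.3 in Prep+/- and 344 ± 36.4 in Prep-/- BMDMs. After IL-4 and IL-13 it was Mmp12, at 429.6 ± 216 in Prep+/- and 802 ± 899 in Prep-/- BMDMs, where it was still first without replicate 3, with a mean of 283 over the other libraries, while Mmp14 was among the lowest 2 at 0.994 ± 0.398 and 1.07 ± 0.322.

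**Figure D1:**
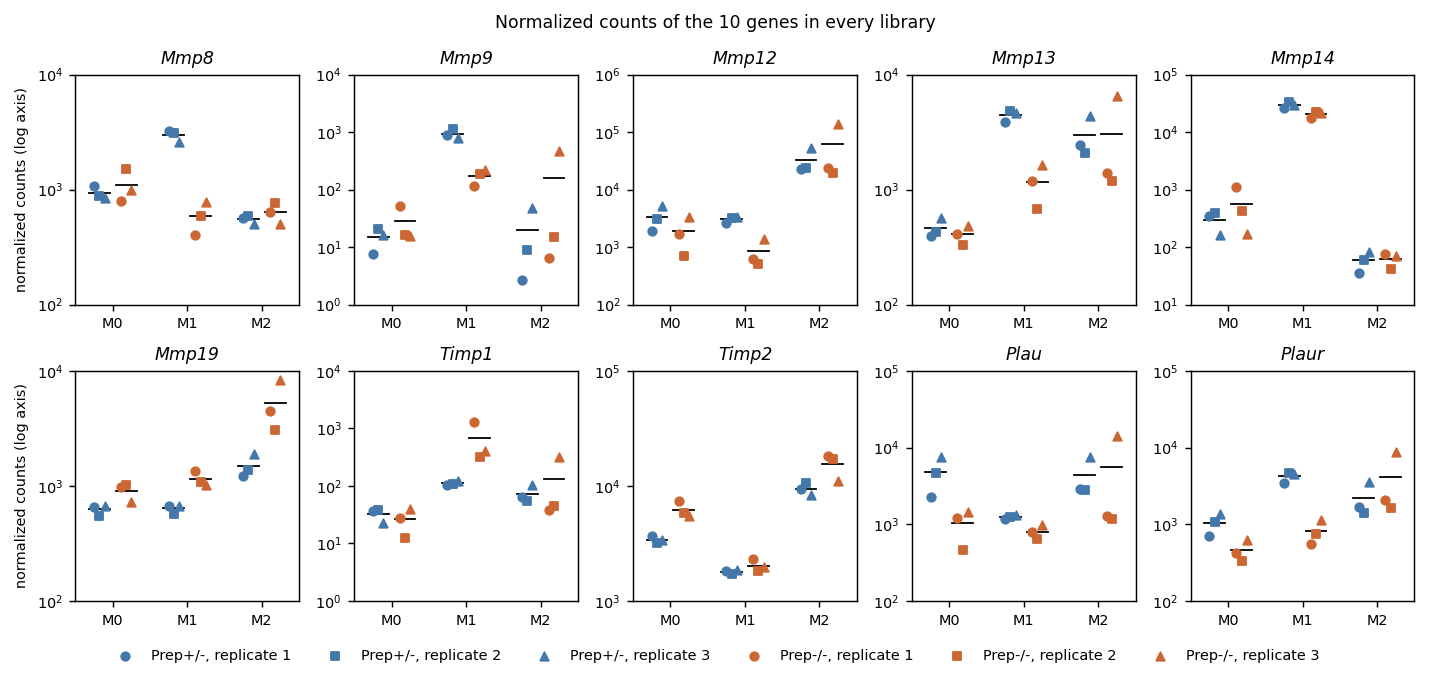
Normalized counts (log axis) of the 10 genes in the M0, M1 and M2 state, with Prep+/- libraries in blue, Prep-/- libraries in orange, 1 marker shape per replicate number and a line at each group's mean (n = 3). Mmp14 was highest in M1, Mmp12, Mmp19 and Timp2 were highest in M2, and the triangle of Prep-/- M2 (replicate 3) stands above the other Prep-/- M2 libraries for Mmp9, Mmp12, Mmp13, Mmp19, Timp1, Plau and Plaur.

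LPS raised 6 of the 10 genes in Prep+/- BMDMs, namely Mmp14, Mmp9, Mmp13, Plaur, Timp1 and Mmp8, and lowered Plau and Timp2. Here and below, a gene counts as higher or lower when the edgeR adjusted p was under 0.05 and its fold change over 1.5, and SE stands for the standard error of a log2 fold change. Of all genes tested, 16.7% were higher and 20.9% lower by the same rule, and the median log2 fold change was 1.73 over the 10 genes and -0.03 over all genes tested. In Prep-/- BMDMs LPS raised 4 of the 10 genes, Mmp14, Timp1, Mmp9 and Mmp13, and lowered Timp2 and Mmp8, against 20.9% of all genes higher and 21% lower.

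Mmp14, the membrane-type metalloproteinase that cleaves collagen at the cell surface, had 353, 387 and 159 normalized counts in Prep+/- M0 replicates 1 to 3 and 26704, 33456 and 29725 in Prep+/- M1. In Prep-/- BMDMs it had 1128, 417 and 167 in M0 and 17857, 21899 and 21121 in M1. All M1 libraries lay far above all M0 libraries, and in M0 the genotypes overlapped because the Prep-/- libraries were spread over a wide range. With LPS it rose on the log2 scale by 6.64 (SE 0.58, edgeR adjusted p = 8.12e-08) in Prep+/- and 5.15 (SE 0.54, edgeR adjusted p = 6.43e-07) in Prep-/- BMDMs, the largest rise of the 10 genes in each genotype. Between the genotypes in M1 every Prep-/- library was below every Prep+/- library, but the log2 fold change of -0.56 did not pass the test (SE 0.45, edgeR adjusted p = 0.341).

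Mmp9, the gelatinase that degrades denatured collagen and basement membrane collagen, had 7.72, 20.9 and 16.1 normalized counts in Prep+/- M0 and 891, 1125 and 777 in Prep+/- M1. In Prep-/- BMDMs it had 52.2, 15.9 and 15.6 in M0 and 114, 189 and 221 in M1. Every M1 library was above every M0 library, and the Prep-/- M1 libraries were all below the Prep+/- M1 libraries. The rise with LPS was 5.93 (SE 1.15, edgeR adjusted p = 3.85e-04) on the log2 scale in Prep+/- and 2.66 (SE 1.05, edgeR adjusted p = 0.0405) in Prep-/- BMDMs. The call in Prep-/- BMDMs was lost without Prep-/- M0 replicate 2 or 3 or Prep-/- M1 replicate 2 or 3 (edgeR adjusted p 0.0776 to 0.115). The M0 values rest on few reads, 8, 25 and 19 counts in Prep+/- and 52, 18 and 16 in Prep-/- libraries.

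Mmp13, an interstitial collagenase of rodents, had 396, 429 and 569 normalized counts in Prep+/- M0 and 3893, 4830.1 and 4651 in Prep+/- M1. Prep-/- BMDMs had 413, 328 and 483 in M0 and 1193, 677 and 1622 in M1. LPS raised it in both genotypes with no overlap between the states, by 3.26 (SE 0.53, edgeR adjusted p = 7.15e-05) in Prep+/- and 1.51 (SE 0.51, edgeR adjusted p = 0.0174) in Prep-/- BMDMs. The smaller rise in Prep-/- BMDMs no longer passed without Prep-/- M0 replicate 2 (1.33, edgeR adjusted p = 0.0657) or without Prep-/- M1 replicate 3 (1.15, edgeR adjusted p = 0.0879).

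Mmp8, a collagenase known best from neutrophils, had 1065, 885 and 839 normalized counts in Prep+/- M0 and 3210.2, 3094 and 2602 in Prep+/- M1. Counts in Prep-/- BMDMs were 792, 1506 and 994 in M0 and 399, 591 and 782 in M1. The direction of the LPS response was thus opposite in the genotypes, up in Prep+/- with a log2 fold change of 1.68 (SE 0.24, edgeR adjusted p = 1.61e-05) and down in Prep-/- with -0.89 (SE 0.24, edgeR adjusted p = 0.00391), and the states did not overlap in either. The summed granulocyte markers were 38.1 to 50.5 CPM in Prep+/- M0, 76.8 to 163 in Prep-/- M0, 70.0 to 119 in Prep+/- M1 and 43.8 to 66.1 CPM in Prep-/- M1, so that they too were higher in M1 than in M0 in Prep+/- and lower in Prep-/- BMDMs. Their part in the values of Mmp8 and Mmp9 was not tested.

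Plaur, the urokinase receptor, had 697, 1056 and 1367 normalized counts in Prep+/- M0 and 3479, 4672 and 4522 in Prep+/- M1. Prep-/- BMDMs had 421, 332 and 633 in M0 and 551, 736 and 1140.4 in M1. LPS raised it in Prep+/- BMDMs by 2.02 (SE 0.53, edgeR adjusted p = 0.00420) on the log2 scale, while in Prep-/- BMDMs the states overlapped and the value was 0.81 (SE 0.53, edgeR adjusted p = 0.202). Libraries of the same replicate number deviated together in that comparison (Pearson's r of deviations from the group means 0.169 to 0.259 over genes), and with the number as a block over the libraries compared Plaur passed at 0.76 (edgeR adjusted p = 0.00502), as did the elastase gene Mmp12 at -1.10 (edgeR adjusted p = 0.00131). With the block over all libraries Mmp12 passed as well (edgeR adjusted p = 0.0296), and Plaur at 0.79 did not (edgeR adjusted p = 0.0564).

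Plau, the urokinase-type activator, moved against its receptor after LPS in Prep+/- BMDMs. It had 2263, 4649 and 7491 normalized counts in Prep+/- M0 and 1177, 1236 and 1341 in Prep+/- M1, a log2 fold change of -1.94 (SE 0.76, edgeR adjusted p = 0.0411). Every M1 library was below every M0 library, but the M0 libraries differed by up to 3.31-fold among themselves, and the call was lost when any 1 of 5 of these 6 libraries was left out, down to -1.45 without Prep+/- M0 replicate 3 (edgeR adjusted p = 0.156). In Prep-/- BMDMs Plau had 1213, 466 and 1425 in M0 and 793, 649.9 and 969 in M1, which overlapped, with a log2 fold change of -0.36 (SE 0.74, edgeR adjusted p = 0.697).

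The inhibitors went in opposite directions after LPS in both genotypes. Timp1 had 36.7, 37.6 and 22.9 normalized counts in Prep+/- M0 and 106, 107 and 123 in Prep+/- M1, whereas Prep-/- BMDMs had 28.1, 12.4 and 40.0 unstimulated and 1306, 318 and 411 with LPS. No M1 library overlapped an M0 library, and Prep-/- M1 replicate 1 was the highest of all. The rise was 4.66 (SE 0.76, edgeR adjusted p = 6.27e-05) in Prep-/- BMDMs. In Prep+/- BMDMs it was 1.79 (SE 0.73, edgeR adjusted p = 0.0489), a call lost when any 1 of the 6 libraries was left out (1.60 to 1.92). Timp2 went from 3638, 3216 and 3386 to 1804, 1731 and 1857 normalized counts in Prep+/- replicates 1 to 3, and from 7381, 5787 and 5522 to 2322, 1815 and 1955 in Prep-/- replicates. It fell in both genotypes, with log2 fold changes of -0.93 (SE 0.17, edgeR adjusted p = 1.89e-04) in Prep+/- and -1.62 (SE 0.17, edgeR adjusted p = 6.49e-07) in Prep-/- BMDMs.

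**Figure D2:**
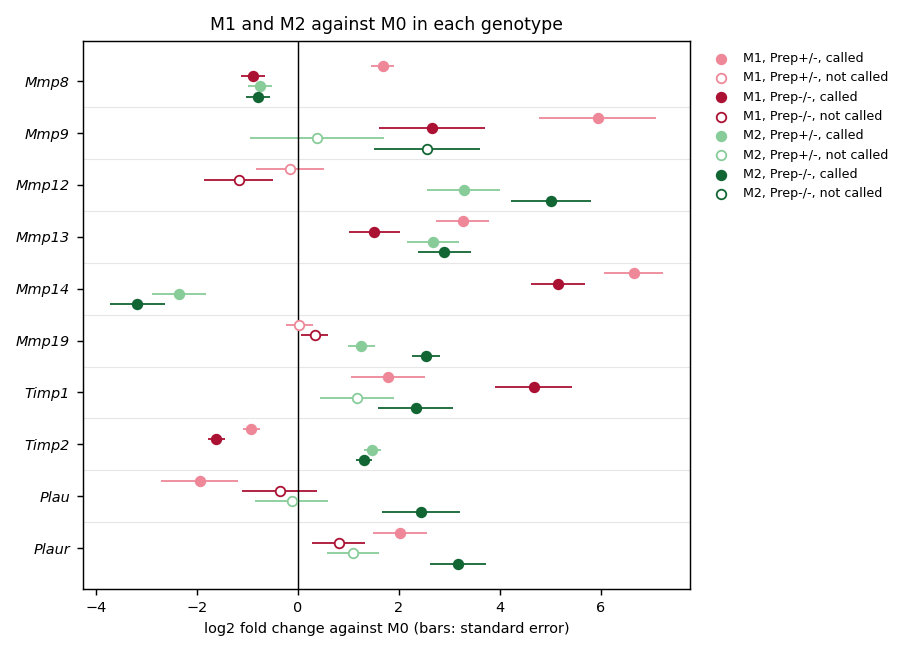
Log2 fold change of M1 or M2 against M0 (horizontal axis, bars give the standard error) for the 10 genes, with a row for each treatment and genotype and filled points for genes that passed an edgeR adjusted p of 0.05 and a fold change of 1.5. Mmp14 rose in M1 and fell in M2 in both genotypes, and Mmp8 rose in M1 in Prep+/- and fell in Prep-/- BMDMs.

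Among the 10 genes, M1 was the state with the most differences between the genotypes. Over all genes tested it was M0, with 15.4% higher and 17.2% lower. In Prep-/- M1 BMDMs Mmp8, Mmp9, Mmp12, Mmp13 and Plaur were lower and Timp1 and Mmp19 higher than in Prep+/- M1 BMDMs. Of the 10 genes, 2 were higher and 5 lower, where 12.3% of all genes tested were higher and 10.2% lower, and the median log2 fold change was -1.25 over the 10 genes and 0.04 over all genes. Mmp14, Timp2 and Plau did not pass. Of these, Plau was lower in every Prep-/- M1 library than in any Prep+/- M1 library, with a log2 fold change of -0.64 (SE 0.75, edgeR adjusted p = 0.525), and it passed at -0.66 when the fit held only the M1 libraries (edgeR adjusted p = 0.00359). With 1 library left out in turn, 3 to 6 of the 10 genes passed, with 3 without Prep-/- M1 replicate 1 and 4 without Prep+/- M1 replicate 2 or 3.

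Of the genes that were lower in Prep-/- M1 BMDMs, Mmp8 and Plaur carried the firmest values. The log2 fold change was -2.33 (SE 0.24, edgeR adjusted p = 1.41e-05) for Mmp8 and -2.38 (SE 0.54, edgeR adjusted p = 0.00330) for Plaur, and both passed in each of the 14 alternatives. For Mmp13 it was -1.94 (SE 0.50, edgeR adjusted p = 0.00753), a call lost only when the test itself required the fold change of 1.5. In these 3 genes the highest Prep-/- M1 library was below the lowest Prep+/- M1 library.

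Mmp12, the macrophage elastase, had 2609.9, 3197 and 3295 normalized counts in Prep+/- M1 and 610.5, 508 and 1401 in Prep-/- M1. The groups did not overlap, and the log2 fold change was -1.85 (SE 0.70, edgeR adjusted p = 0.0475). For Mmp9 the difference was -2.41 (SE 0.91, edgeR adjusted p = 0.0490). Both adjusted p lay just under 0.05. The Mmp9 call was lost when any 1 of the 6 M1 libraries was left out (edgeR adjusted p 0.0738 to 0.156) and with DESeq2 (adjusted p = 0.0844), and the Mmp12 call without any of the M1 libraries other than Prep-/- M1 replicate 3 (edgeR adjusted p 0.0601 to 0.155).

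Timp1, which blocks most secreted metalloproteinases, was the gene with the largest rise of the 10. Its log2 fold change in M1 was 2.60 (SE 0.66, edgeR adjusted p = 0.00692), a 6.05-fold difference. Without Prep-/- M1 replicate 1, the highest library, it was 1.69 and did not pass (edgeR adjusted p = 0.0685), although the other Prep-/- M1 libraries also lay above every Prep+/- M1 library. Timp1 counts in Prep+/- M1 were 93, 90 and 96. Mmp19, a metalloproteinase that degrades basement membrane proteins, had 674, 575 and 669 normalized counts in Prep+/- M1 and 1341, 1082 and 1017 in Prep-/- M1, a log2 fold change of 0.84 (SE 0.27, edgeR adjusted p = 0.0231) that no longer passed without Prep+/- M1 replicate 2 or 3 or Prep-/- M1 replicate 1 (edgeR adjusted p = 0.0849, 0.0529 and 0.0999).

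**Figure D3:**
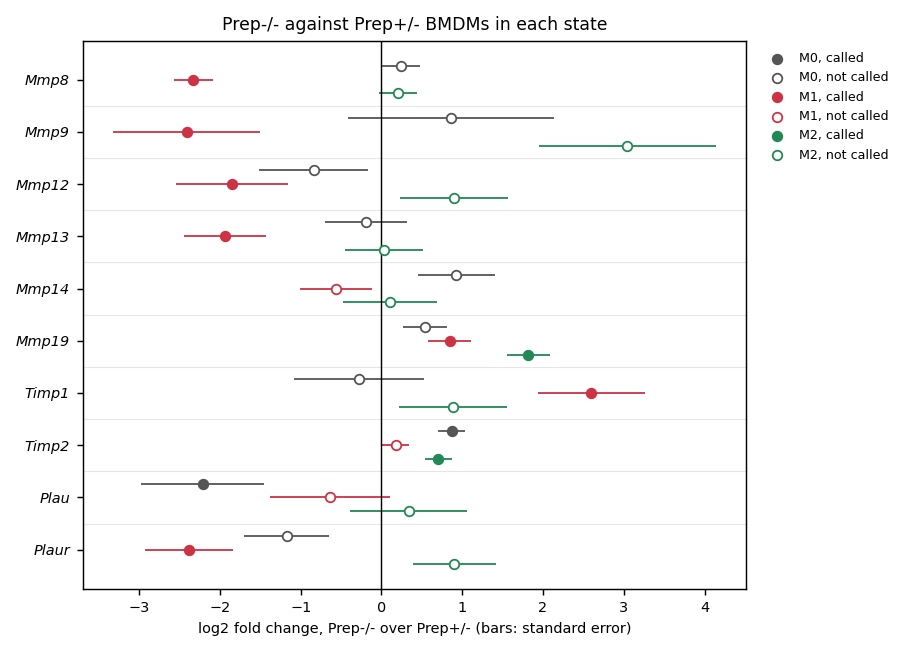
Log2 fold change of Prep-/- over Prep+/- BMDMs (horizontal axis, bars give the standard error) in M0, M1 and M2 for the 10 genes, with filled points for genes that passed an edgeR adjusted p of 0.05 and a fold change of 1.5. The M1 points of Mmp8, Mmp9, Mmp12, Mmp13 and Plaur lie left of 0 and that of Timp1 lies right of it, while Mmp19 is right of 0 in all 3 states.

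In M0, 1 of the 10 genes was higher and 1 lower in Prep-/- BMDMs, against 15.4% of all genes higher and 17.2% lower. The median log2 fold change was 0.02 over the 10 genes and 0.02 over all genes tested. Timp2, whose M0 values are given above, was higher in every Prep-/- M0 library than in any Prep+/- M0 library, with a log2 fold change of 0.87 (SE 0.17, edgeR adjusted p = 4.65e-04). Plau was lower in every Prep-/- M0 library, with a log2 fold change of -2.22 (SE 0.77, edgeR adjusted p = 0.0247), and it lost the call without Prep+/- M0 replicate 3 (-1.76, edgeR adjusted p = 0.0975), Prep-/- M0 replicate 1 (-2.34, edgeR adjusted p = 0.0533) or Prep-/- M0 replicate 2 (-1.86, edgeR adjusted p = 0.0876).

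Plaur and Mmp19 did not overlap between the genotypes in M0 but did not pass in the fit of all libraries. For the receptor Plaur the log2 fold change was -1.17 (SE 0.53, edgeR adjusted p = 0.0766), and it passed at -1.17 when the fit held only the M0 libraries (edgeR adjusted p = 0.0178). For Mmp19 it was 0.54 (SE 0.27, edgeR adjusted p = 0.107). Mmp14 had a log2 fold change of 0.93 (SE 0.47, edgeR adjusted p = 0.115) in M0, which became 1.35 without Prep-/- M0 replicate 3 and then passed (edgeR adjusted p = 0.00770). Summed stromal markers were 0.784 CPM in that library and 14.8 and 18.6 CPM in the other Prep-/- M0 libraries, against 15.0 to 18.4 CPM in Prep+/- M0, and their part in the Mmp14 values was not tested.

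The difference of the knockout effect between M1 and M0 was itself tested. Of the 10 genes, 2 passed, against 21.1% of all genes in either direction. For Mmp8 the effect was lower in M1 than in M0 by -2.57 (SE 0.33, edgeR adjusted p = 8.03e-05) on the log2 scale, and this call held in each of the 20 alternatives. For Timp2 the excess in Prep-/- BMDMs was larger in M0 (0.87) than in M1 (0.18), a difference of -0.69 (SE 0.23, edgeR adjusted p = 0.0405). That call was lost when any 1 of 8 of the 12 libraries was left out (edgeR adjusted p 0.0576 to 0.103). For Timp1 the difference was 2.88 (SE 1.03, edgeR adjusted p = 0.0517), and it passed in 8 of the 20 alternatives, among them DESeq2 (adjusted p = 0.0328) and the fit of the M0 and M1 libraries alone (edgeR adjusted p = 0.0164). For Mmp13 it was -1.75 (SE 0.70, edgeR adjusted p = 0.0801), and it passed in 3 of the 20, the M0 and M1 libraries alone (edgeR adjusted p = 0.00423) and both fits with the replicate number as a block (edgeR adjusted p = 0.0153 and 0.00193). The numbers did not pair the genotypes in M0 or in M1 by the correlation check given below, so these block fits are a description. Mmp9 and Plaur passed with the M0 and M1 libraries alone too (edgeR adjusted p = 0.00232 and 0.0485), so that the call for these 4 genes depended on the libraries in the fit.

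IL-4 and IL-13 raised Mmp12, Mmp13, Timp2 and Mmp19 and lowered Mmp14 and Mmp8 in Prep+/- BMDMs. Of the 10 genes 4 were higher and 2 lower, against 6.09% and 6.77% of all genes tested, with a median log2 fold change of 1.14 over the 10 genes and -0.01 over all genes. In Prep-/- BMDMs 7 were higher, those 4 genes with Plaur, Plau and Timp1, and the same 2 lower, against 14.7% and 15.5% of all genes. Without Prep-/- M2 replicate 3, 5 were higher and 1 lower in Prep-/- BMDMs. The shares of all genes given above are those of the fit of all libraries and do not apply to this refit.

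Mmp12, the elastase, had 1868, 3124 and 5135 normalized counts in Prep+/- M0 and 22517, 24021 and 51857 in Prep+/- M2. Counts in Prep-/- BMDMs were 1694, 691 and 3282 in M0 and 24066, 19119 and 140415 in M2. Every M2 library was above every M0 library in both genotypes, and Prep-/- M2 replicate 3 was far above the rest. The log2 fold change was 3.28 (SE 0.73, edgeR adjusted p = 0.00419) in Prep+/- and 5.02 (SE 0.79, edgeR adjusted p = 8.88e-05) in Prep-/- BMDMs, and 3.50 without Prep-/- M2 replicate 3 (edgeR adjusted p = 1.35e-04).

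The collagenase Mmp13 had 2447, 2091 and 4356 normalized counts in Prep+/- M2 and 1399, 1192 and 6496 in Prep-/- M2, all above the M0 libraries of the same genotype. The rise was 2.67 (SE 0.52, edgeR adjusted p = 0.00148) in Prep+/- and 2.89 (SE 0.53, edgeR adjusted p = 3.10e-04) in Prep-/- BMDMs, and 1.65 without Prep-/- M2 replicate 3 (edgeR adjusted p = 6.35e-04). Mmp14 was the reverse of its LPS response, with 35.2, 58.6 and 82.1 normalized counts in Prep+/- M2 and 76.7, 41.3 and 71.0 in Prep-/- M2. Every M2 library was below every M0 library of its genotype, and the log2 fold change was -2.35 (SE 0.53, edgeR adjusted p = 0.00477) in Prep+/- and -3.18 (SE 0.54, edgeR adjusted p = 1.74e-04) in Prep-/- BMDMs.

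Mmp8 had 560.2, 591 and 505 normalized counts in Prep+/- M2 and 633, 771 and 505 in Prep-/- M2. These were below the M0 libraries of the same genotype, at log2 fold changes of -0.75 (SE 0.23, edgeR adjusted p = 0.0340) and -0.79 (SE 0.23, edgeR adjusted p = 0.0121). The call in Prep+/- BMDMs was lost when any 1 of the 6 libraries was left out (edgeR adjusted p 0.0511 to 0.109), and that in Prep-/- BMDMs without Prep-/- M0 replicate 2 (edgeR adjusted p = 0.0803) or Prep-/- M2 replicate 3 (edgeR adjusted p = 0.0516). Mmp9 was at 51 counts or fewer in 5 of the 6 M2 libraries, with 3, 10 and 51 raw counts in Prep+/- and 6, 14 and 458 in Prep-/- M2. Its log2 fold change against M0 was 0.37 (SE 1.33, edgeR adjusted p = 0.881) in Prep+/- and 2.55 (SE 1.05, edgeR adjusted p = 0.0598) in Prep-/- BMDMs, and -1.38 without Prep-/- M2 replicate 3.

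The urokinase pair rose in M2 in Prep-/- BMDMs, with most of the rise in 1 library. Plau had 2863, 2762 and 7600.4 normalized counts in Prep+/- M2 and 1274, 1178 and 14235 in Prep-/- M2. Only replicate 3 of the Prep-/- M2 libraries lay above all Prep-/- M0 libraries. Against M0 its log2 fold change was -0.12 (SE 0.73, edgeR adjusted p = 0.932) in Prep+/- and 2.43 (SE 0.77, edgeR adjusted p = 0.0173) in Prep-/- BMDMs, and 0.23 without Prep-/- M2 replicate 3 (edgeR adjusted p = 0.743). The call was lost in 5 of 14 alternatives, also without Prep-/- M0 replicate 2 (edgeR adjusted p = 0.0695). Plaur had 1672, 1397 and 3601 normalized counts in Prep+/- M2 and 2095, 1617 and 8748 in Prep-/- M2, each above all M0 libraries of its genotype. The log2 fold change was 1.09 (SE 0.52, edgeR adjusted p = 0.166) in Prep+/- and 3.17 (SE 0.56, edgeR adjusted p = 2.40e-04) in Prep-/- BMDMs, and 1.99 without Prep-/- M2 replicate 3 (edgeR adjusted p = 7.01e-04).

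Of the inhibitors, Timp2 rose with IL-4 and IL-13 in both genotypes, and Timp1 passed in Prep-/- BMDMs through 1 library. Timp1 had 64.0, 54.1 and 102 normalized counts in Prep+/- M2 and 38.3, 45.5 and 319.6 in Prep-/- M2. Its log2 fold change was 1.18 (SE 0.73, edgeR adjusted p = 0.298) in Prep+/- and 2.34 (SE 0.74, edgeR adjusted p = 0.0173) in Prep-/- BMDMs, and 0.64 without Prep-/- M2 replicate 3 (edgeR adjusted p = 0.460). The latter call was lost without Prep-/- M0 replicate 2 as well (edgeR adjusted p = 0.0722), and Timp1 and Plaur passed as higher in Prep+/- M2 with only the Prep+/- M0 and M2 libraries in the fit (edgeR adjusted p = 0.0128 and 0.0306). Timp2 had 9356, 10709.7 and 8349.8 normalized counts in Prep+/- M2 and 18051, 17248 and 11046 in Prep-/- M2, all above M0, with log2 fold changes of 1.47 (SE 0.17, edgeR adjusted p = 8.11e-06) and 1.31 (SE 0.17, edgeR adjusted p = 1.03e-05).

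Between the genotypes in M2, 2 of the 10 genes were higher in Prep-/- BMDMs, Mmp19 and Timp2, and 0 were lower, against 6.37% of all genes higher and 9.82% lower. Over the 10 genes the median log2 fold change was 0.79, and over all genes tested 0.03. Mmp19 had 1219.6, 1373 and 1894 normalized counts in Prep+/- M2 and 4493, 3057 and 8283 in Prep-/- M2. The groups did not overlap, and the log2 fold change was 1.82 (SE 0.27, edgeR adjusted p = 1.63e-04), a 3.53-fold difference, and 1.35 without Prep-/- M2 replicate 3 (edgeR adjusted p = 9.75e-05). For Timp2 the log2 fold change was 0.71 (SE 0.16, edgeR adjusted p = 0.00512), and without Prep-/- M2 replicate 3, the lowest Prep-/- library for this gene, it was 0.91 (edgeR adjusted p = 1.02e-04). Without Prep-/- M2 replicate 1, the highest, it was 0.57, which is under the fold change of 1.5, and the call was lost (edgeR adjusted p = 0.0352).

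For 6 of the other 8 genes the sign of the group difference in M2 changed when Prep-/- M2 replicate 3 alone was left out, with Prep+/- M2 replicate 3, itself high, still in the fit. With all libraries the log2 fold changes were 3.04 for Mmp9 (edgeR adjusted p = 0.0526), 0.90 for Mmp12 (edgeR adjusted p = 0.358), 0.90 for Plaur (edgeR adjusted p = 0.217), 0.88 for Timp1 (edgeR adjusted p = 0.366), 0.34 for Plau (edgeR adjusted p = 0.778) and 0.03 for Mmp13 (edgeR adjusted p = 0.973), none of which passed. Without that library they were -0.87 for Mmp9, -0.59 for Mmp12, -0.25 for Plaur and -0.79 for Timp1. Plau at -1.83 and Mmp13 at -1.18 then passed as lower (edgeR adjusted p = 0.0124 and 0.0109), so that 4 of the 10 genes were called. The share of all genes called in this refit is not given, and the shares of the fit of all libraries do not apply to it. Mmp8 (0.20) and Mmp14 (0.11) differed by less than their standard errors of 0.24 and 0.58.

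In M2, too, libraries of the same replicate number deviated together (r 0.249 to 0.462), and the ratios within a number differed. The 3 values of r are not independent, since the deviations within a group sum to 0. For Plau the Prep-/- library had 0.445 and 0.427 times the normalized counts of the Prep+/- library in replicates 1 and 2, and 1.87 times in replicate 3. The same ratios were 0.572, 0.570 and 1.49 for Mmp13, and 1.07, 0.796 and 2.71 for Mmp12. For Timp1 they were 0.598, 0.840 and 3.13. For Mmp19 they were 3.68, 2.23 and 4.37, for Timp2 1.93, 1.61 and 1.32, for Plaur 1.25, 1.16 and 2.43, and for Mmp9 2.36, 1.67 and 9.65. These 4 genes were thus higher in Prep-/- BMDMs within each of the 3 numbers, so that the signs of Plaur and Mmp9 without Prep-/- M2 replicate 3 alone are not those within replicates 1 and 2. For Mmp9 these ratios rest on few reads, 6 against 3 raw counts in replicate 1 and 14 against 10 in replicate 2. With the number as a block over the M2 libraries, Mmp9 passed at 2.41 (edgeR adjusted p = 0.0252), and it passed in 6 of the 14 alternatives in all, among them DESeq2 without the block (adjusted p = 0.0410). Summed stromal markers were 15.8 CPM in Prep+/- M2 replicate 3 and 0.461 and 0.0925 CPM in the other Prep+/- M2 libraries, and 1.02, 5.11 and 5.92 CPM in Prep-/- M2 replicates 1 to 3, and their part in these values was not tested. Summed dendritic markers were highest in replicate 3 of both M2 groups, at 2.30 CPM against 1.20 and 0.740 CPM in Prep+/- and 2.54 CPM against 1.12 and 1.02 CPM in Prep-/- BMDMs, and their part was not tested either. Granulocyte markers summed to 29.9 CPM in Prep-/- M2 replicate 3 and to 41.4 and 48.1 CPM in the other Prep-/- M2 libraries. In Prep+/- M2 replicates 1 to 3 they summed to 27.2, 33.8 and 27.4 CPM, and their part in the Mmp9 values was not tested.

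**Figure D4:**
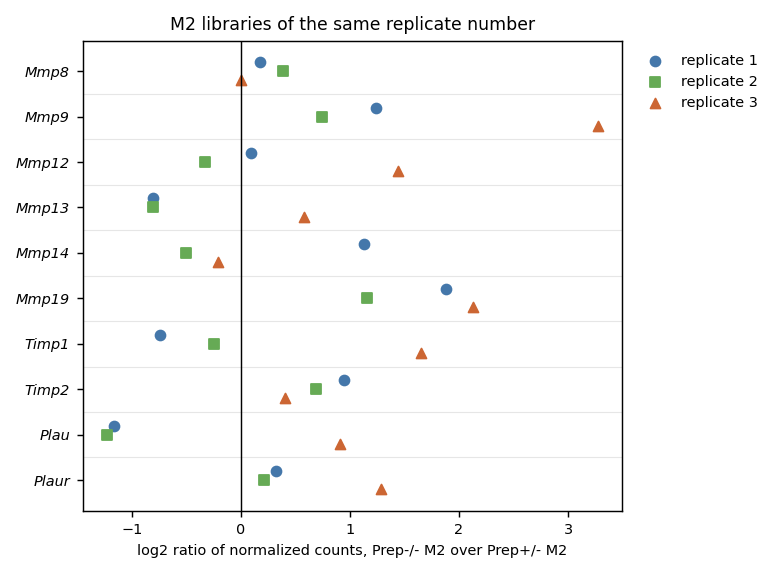
Log2 ratio of normalized counts, Prep-/- M2 over Prep+/- M2, between libraries of the same replicate number for the 10 genes, with 1 marker per number. For Mmp13, Timp1 and Plau replicates 1 and 2 lie left of 0 and replicate 3 lies right of it. For Mmp9, Mmp19, Timp2 and Plaur all 3 numbers lie right of 0, and for Mmp8 they lie at 0 or right of it. Plaur is at 0.33 and 0.21 in replicates 1 and 2, and Mmp9 there rests on 14 raw counts or fewer in each library.

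Mmp19 was the gene whose knockout effect differed between M2 and M0, the 1 call among the 10 genes in that test, against 8.66% of all genes in either direction. In M0 it had 655, 552 and 671 normalized counts in Prep+/- against 982, 1014 and 730.5 in Prep-/- BMDMs, and it rose with IL-4 and IL-13 by 1.26 (SE 0.27, edgeR adjusted p = 0.00316) in Prep+/- and 2.54 (SE 0.28, edgeR adjusted p = 2.01e-06) in Prep-/- BMDMs. Prep-/- M2 libraries other than replicate 3 averaged 3775 normalized counts, against a Prep-/- M0 mean of 909. The difference of the knockout effect was 1.28 (SE 0.38, edgeR adjusted p = 0.0413). It was 0.81 without Prep-/- M2 replicate 3 (edgeR adjusted p = 0.0789), and the call was lost when any 1 of 8 of the 12 libraries was left out (edgeR adjusted p 0.0605 to 0.103). Of the 20 alternatives 11 lost it, among them the fit of the M0 and M2 libraries alone without (edgeR adjusted p = 0.104) and with the replicate block (edgeR adjusted p = 0.105) and the test that required the fold change of 1.5 (adjusted p = 0.269), while DESeq2 kept it (adjusted p = 0.00953). The log2 difference for Plaur was 2.08 (SE 0.74, edgeR adjusted p = 0.0861). It passed in 5 of the 20 alternatives, each with Prep-/- M2 replicate 3 in the fit. That for Plau was 2.55 (SE 1.05, edgeR adjusted p = 0.137). Without Prep-/- M2 replicate 3 the knockout effect in M2 itself turned negative for both genes, as given above.

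Ordered by their means, the 6 groups formed a different series in each gene. Timp2 gave the most separated series, falling from Prep-/- M2 over Prep+/- M2, Prep-/- M0 and Prep+/- M0 to the overlapping M1 groups, with no overlap between other neighbours. Mmp14 fell from Prep+/- M1 and Prep-/- M1, which did not overlap, to the M0 groups, which did, and then to the overlapping M2 groups. In Mmp8, Prep+/- M1 stood alone at the top, the M0 groups overlapped below it, and both M2 groups and Prep-/- M1 overlapped at the bottom. In Mmp9 Prep+/- M1 stood alone and the 5 groups below it overlapped their neighbours.

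In Mmp12 the M2 groups overlapped at the top and the 4 others overlapped their neighbours. In Mmp13 Prep+/- M1 and the M2 groups overlapped, Prep-/- M1 overlapped Prep-/- M2 but was below Prep+/- M2 and Prep+/- M1, and the M0 groups overlapped at the bottom. In Plau both M2 groups and Prep+/- M0 overlapped, Prep+/- M1 overlapped Prep-/- M0, which overlapped Prep-/- M1, and the lowest Prep-/- M2 libraries also reached into the range of Prep+/- M1 and Prep-/- M0. In Plaur, Prep+/- M1 overlapped the M2 groups, which stood apart from Prep+/- M0, Prep-/- M1 and Prep-/- M0. Of these, Prep-/- M1 overlapped both M0 groups, which were apart from each other. Mmp19 was highest in Prep-/- M2, which stood alone, followed by Prep+/- M2 and Prep-/- M1, which overlapped, then Prep-/- M0 alone and the other Prep+/- groups, which overlapped. In Timp1, Prep-/- M2 was spread so widely that it overlapped both M1 groups, Prep+/- M2 and Prep-/- M0, while Prep-/- M1, Prep+/- M1, Prep+/- M2 and the overlapping M0 groups lay in falling order and apart.

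Across the 18 libraries, each gene was set beside the genes most like it by Pearson's r of log2 CPM (prior count 2). These values are a description, since the libraries share genotypes, states and depth. Mmp14 was followed most closely by the formyl peptide receptor Fpr2 (0.993), C1s1 (0.989) and Irak3 (0.988), Mmp12 by Ocstamp (0.955), Itgax (0.952) and Rrp8 (0.951), and Timp2 by Klk1b11 (0.985), Tfeb (0.977) and Fbln5 (0.976). For Mmp9 the likest gene was Ccl3 (0.952), for Mmp13 Grpel2 (0.949), for Mmp19 Cog3 (0.955), for Plaur Brix1 (0.939), for Plau Btf3l4 (0.932), for Timp1 Zdhhc12 (0.927) and for Mmp8 Pim2 (0.895). Among the 10 genes the highest r was that of Mmp13 and Plaur (0.90) and the lowest that of Mmp14 and Timp2 (-0.888).

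Other Mmp and Timp genes were few in these cells. Of 18 listed, 16 were in the table and 9 passed the filter, and Mmp27 was the one with a mean of at least 5 CPM. Mmp27 begins 2909 bases beyond the end of Mmp8 on the same strand, and the long non-coding RNA Gm31751 overlaps both on the opposite strand. It had 223, 188 and 185 normalized counts in Prep+/- M0, 259, 443 and 268 in Prep-/- M0, 422, 369 and 428 in Prep+/- M1 and 128, 147 and 166 in Prep-/- M1. Like its neighbour, Mmp27 rose with LPS in Prep+/- BMDMs (log2 fold change 1.03, SE 0.19, edgeR adjusted p = 1.78e-04) and fell in Prep-/- BMDMs (log2 fold change -1.14, SE 0.19, edgeR adjusted p = 7.92e-05). Between the genotypes it was higher in Prep-/- BMDMs in M0 (log2 fold change 0.71, SE 0.18, edgeR adjusted p = 0.00486) and lower in M1 (log2 fold change -1.47, SE 0.19, edgeR adjusted p = 8.42e-05). Pearson's r of Mmp8 and Mmp27 over the 18 libraries was 0.755. Of the 9 genes, Prep-/- M0 had 2 higher and 1 lower, next to 15.4% and 17.2% of all genes tested, Prep-/- M1 had 3 and 1, next to 12.3% and 10.2%, and 0 passed in M2, next to 6.37% and 9.82%.

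The plasminogen system beyond Plau and Plaur also held genes that differed between the genotypes. Of 11 listed genes 8 were tested, of which M0 had 1 higher and 5 lower in Prep-/- BMDMs (15.4% and 17.2% of all genes tested), M1 had 1 and 4 (12.3% and 10.2%), and M2 had 0 and 2 (6.37% and 9.82%). The median log2 fold changes were -1.20, -0.56 and -0.45, against 0.02, 0.04 and 0.03 over all genes. Serpinb2, the intracellular urokinase inhibitor PAI-2, was at 6, 1 and 2 counts in Prep+/- M0 and rose to 4201, 5355 and 5830.1 normalized counts in Prep+/- M1, while Prep-/- M1 had 146, 419 and 631. The log2 fold change between the genotypes in M1 was -3.68 (SE 0.37, edgeR adjusted p = 1.25e-05), a larger fall than that of any of the 10 genes. Lrp1, the endocytic receptor that clears urokinase bound to its inhibitors, had 32376, 32834 and 35988 normalized counts in Prep+/- M0 against 10682, 13276 and 16057 in Prep-/- M0. Its log2 fold change was -1.34 (SE 0.15, edgeR adjusted p = 6.36e-06) in M0 and -0.61 (SE 0.15, edgeR adjusted p = 0.00824) in M2. Eno1, a glycolytic enzyme that can also bind plasminogen at the cell surface and whose reads may be shared with its near-identical copy Eno1b, was lower in Prep-/- BMDMs in M0 (log2 fold change -1.82, SE 0.14, edgeR adjusted p = 3.72e-07), M1 (log2 fold change -0.82, SE 0.14, edgeR adjusted p = 5.45e-04) and M2 (log2 fold change -0.67, SE 0.14, edgeR adjusted p = 0.00236). Plgrkt, a plasminogen receptor, went the other way, with 0.88 (SE 0.19, edgeR adjusted p = 0.00126) in M0 and 0.61 (SE 0.19, edgeR adjusted p = 0.0204) in M1.

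Of 12 surface partners and activators, 9 were tested, of which 1 was higher and 2 lower in Prep-/- M0, where 15.4% and 17.2% of all genes were, 1 and 3 in M1, against 12.3% and 10.2%, and 2 and 0 in M2, against 6.37% and 9.82%. The M0 shares were near those of all genes. Furin, the convertase that removes the propeptide of MMP14, had 3523, 3889.7 and 3290.1 normalized counts in Prep+/- M2 and 7595, 7453 and 5469 in Prep-/- M2. It was higher in Prep-/- BMDMs in M1 (log2 fold change 0.81, SE 0.16, edgeR adjusted p = 0.00137) and M2 (log2 fold change 0.94, SE 0.16, edgeR adjusted p = 4.62e-04). Cd44, a hyaluronan receptor that anchors MMP9 and MMP14 at the cell surface, had 8326, 10107 and 10030.1 normalized counts in Prep+/- M1 and 4705, 5116 and 5620.2 in Prep-/- M1, a log2 fold change of -0.88 (SE 0.19, edgeR adjusted p = 0.00214). The membrane metalloproteinase Adam19 turned with the state, with log2 fold changes of 3.01 (SE 0.38, edgeR adjusted p = 1.47e-05) in M0, -1.60 (SE 0.39, edgeR adjusted p = 0.00491) in M1 and 1.37 (SE 0.36, edgeR adjusted p = 0.0100) in M2. Adam8, another of these proteases, had 15410.3, 21272 and 25334 normalized counts in Prep+/- M0 against 5504, 4994 and 4929 in Prep-/- M0, a log2 fold change of -2.01 (SE 0.23, edgeR adjusted p = 4.87e-06), and LPS raised it in Prep+/- (log2 fold change 1.39, SE 0.22, edgeR adjusted p = 5.52e-05) and in Prep-/- BMDMs (log2 fold change 2.58, SE 0.23, edgeR adjusted p = 1.12e-07). Adam10 was lower in Prep-/- BMDMs in M0, at -0.72 (SE 0.11, edgeR adjusted p = 7.15e-05).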

How the data were processed

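Bulk RNA-seq counts of 18 libraries were analysed, 3 in each of 6 groups of genotype and state, and groups and replicate numbers were taken from the labels. Per the submitters' processing notes and the methods, the authors used Trimmomatic 0.36 for trimming, HISAT2 2.2.1.0 for alignment to GRCm39 and stringtie2 for counting, and the deposited values are whole-number counts per gene symbol without normalization. The annotation release and the handling of strand are not given in the sources used here. All 18 columns were matched to a sample. Total counts of 19068237 to 22598279 set the precision, which for genes with few counts is limited by counting error. All of the following was computed here.

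Genes were filtered with edgeR's filterByExpr (12021 of 16314 kept), libraries were scaled by TMM (factors 0.818 to 1.20), and the quasi-likelihood model of edgeR 4.0.16 (with limma 3.58.1 in R 4.3.3) used all libraries with a term for each group, with Benjamini-Hochberg adjustment over the genes tested in each comparison. The common biological coefficient of variation was 0.167. Standard errors were taken from the F statistic. Called genes had an adjusted p below 0.05 and a fold change above 1.5. Knockout effects within states, state effects within genotypes and the differences of the knockout effect between states gave 9 comparisons. The knockout comparisons and the polarization comparisons share libraries.

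The members and gene lists were chosen with earlier results of these data known. All 10 members are named, and of the wider lists at most the 2 largest rises and the 2 largest falls per comparison among called genes that averaged 5 CPM or more and whose groups did not overlap. Serpinb2 in M0 and other values outside this rule were added after they were seen. Likeness was Pearson's r of log2 CPM over 18 libraries, for the 3 nearest genes. Replicate numbers were taken to pair libraries where each number's deviations from the group means correlated at over 0.1, which held for the genotypes in M2 (0.249, 0.255 and 0.462) and for M1 against M0 in Prep-/- (0.201, 0.169 and 0.259), from the data alone. Deviations within a group of 3 sum to 0, so the 3 values are not independent, and 1 number that stands apart in both groups can raise them all. No replicate repeated another, since pairs within groups differed beyond sampling noise (chi-square per degree of freedom 9.26 to 114). The highest values were those of replicate 3 against the other libraries in Prep-/- M0 and in Prep-/- M2. Alternatives were DESeq2 1.42.0, its size factors, other filters, glmTreat against a fold change of 1.5, only the libraries compared, and a replicate block. Each library of the groups compared was also left out in turn. Positions and upstream sequences came from GRCm39 with GENCODE vM39, and figures were drawn with matplotlib 3.10.9. Near-identical transcripts (90% over 100 bases) were searched with blastn 2.17.0 and found only in overlapping genes. These were Gm31751 for Mmp8, Gm62879 for Mmp14, Tmem198b and Gm47093 for Mmp19, and Gm63115 for Plau. The longest match was 800 bases of Tmem198b in the Mmp19 transcript of 3461 bases. The test was tried on simulated counts first.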

Additional observations from a re-analysis of the deposited data

Results flagged for a closer look

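For Mmp8 the knockout effect, Prep-/- against Prep+/-, differed between M1 and M0, with a difference of -2.57 on the log2 scale (standard error 0.33, edgeR adjusted p = 8.03e-05). The genotypes overlapped in M0 and were apart in M1, where all 3 Prep-/- libraries were lower. For Timp2 the same difference was -0.69 (standard error 0.23, edgeR adjusted p = 0.0405), with Prep-/- libraries higher in 3 of 3 in M0 and overlapping Prep+/- in M1. For Mmp19 the effect differed between M2 and M0 by 1.28 (standard error 0.38, edgeR adjusted p = 0.0413), and the Prep-/- libraries were above all Prep+/- libraries in both states. These differences were picked out because the interaction itself passed the test, and the dependence of the Timp2 and Mmp19 results on single libraries is given with the results.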

How the results depend on the processing

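Of 1380 values of single genes under alternatives, 1208 kept their direction and side of the threshold, 91 lost a call, 44 gained one without a change of sign, and 37 changed sign. Among those that changed sign, Plau and Mmp13 in M2 without Prep-/- M2 replicate 3 also gained a call. Requiring the fold change of 1.5 within the test left 0 called genes in M0, 3 in M1 and 1 in M2 between the genotypes, 3 in M1 against M0 in Prep-/- BMDMs, and 1 and 0 for the differences of the knockout effect between M1 and M0 and between M2 and M0, since this test is stricter by construction. With only the libraries compared, those differences gave 6 and 0 called genes. Other filters on low counts and size factors moved no count of called genes by over 1.5 times. For these alternatives the cause was not tested.

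With the replicate block over all libraries, 4 and 2 genes were called for the differences of the knockout effect between M1 and M0 and between M2 and M0, and with the block over the libraries compared 6 for the first. The block turned Mmp13 (-0.17, and -0.35 over the libraries compared) and Plau (-0.087 and -0.51) in M2 between the genotypes, Mmp12 in M1 against M0 in Prep+/- BMDMs (0.015) and Mmp13 for the difference between M2 and M0 (-0.064). None of these passed the test in the fit without the block. Calls gained under the block in the paired comparisons stand beside those results, and it changed no other call there. Outside them the check failed or, for the differences of the knockout effect, was not made. Block values given there are a description.

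With each library left out in turn, called genes ranged from 1 to 3 in M0, 3 to 6 in M1 and 2 to 4 in M2 between the genotypes, and from 1 to 4 and 0 to 3 for the differences between M1 and M0 and between M2 and M0. Signs that turned were those of values that did not pass with all libraries. Between the genotypes the log2 fold change ranged in M0 from -0.053 to 0.43 for Mmp8, -0.031 to 1.35 for Mmp14 and -0.70 to 0.083 for Timp1, and in M2 from -0.87 to 4.77 for Mmp9, -0.59 to 1.39 for Mmp12, -1.18 to 0.41 for Mmp13, -0.15 to 0.43 for Mmp14, -0.79 to 1.31 for Timp1, -1.83 to 0.98 for Plau and -0.25 to 1.43 for Plaur. Against M0 in Prep+/- BMDMs it ranged from -0.47 to 0.29 for Mmp12 and -0.045 to 0.098 for Mmp19 in M1, and from -1.38 to 0.87 for Mmp9 and -0.79 to 0.35 for Plau in M2, and in Prep-/- M2 from -1.38 to 3.35 for Mmp9. The difference between M2 and M0 ranged from -0.22 to 0.26 for Mmp8, -1.72 to 3.91 for Mmp9, -0.995 to 0.60 for Mmp13, -1.23 to 0.14 for Mmp14, -0.51 to 1.58 for Timp1 and -0.29 to 0.044 for Timp2. Depth limits Mmp9 outside M1 and Timp1 in all groups but Prep-/- M1, which rest on under 100 counts in most libraries.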
